A study of Mus musculus with 3 samples.

Results

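The Src and Syk family kinase genes are a set of 9 genes chosen by name: Fyn, Lck, Lyn, Yes1, Fgr and Src of the Src family, Csk, and Syk and Zap70 of the Syk family. They were placed among 22350 protein-coding genes on 20 chromosomes, and each was taken with its gene body and 20 kb on either side, called here its window. Every row of the Runx3 and histone H3 lysine 4 monomethylation (H3K4me1) lists that shared at least 1 bp with a window was assigned to that gene. All 9 genes were found in the annotation, Syk under its older symbol Sykb, and their windows held 40 of 15524 Runx3 peaks and 63 of 49902 H3K4me1 regions. The rule for finding them used no measured value, though the set was chosen with earlier results of these data known.

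The study mapped Runx3, a transcription factor of the RUNX family that is abundant in cytotoxic lymphocytes, by chromatin immunoprecipitation and sequencing (ChIP-seq) in freshly isolated, resting splenic natural killer cells (NKC) of ICR mice. There were 3 samples with 1 in each group, namely chromatin precipitated with a polyclonal anti-Runx3 antibody, with a monoclonal anti-H3K4me1 antibody, or with non-immune serum (NIS) as the control. Each sample came from the same kind of cells with no genotype or treatment that set the groups apart, so antibody was the only labelled difference between them. Age and sex of the mice were not given in the sources used here. Each antibody is represented by 1 list of coordinates without scores, so strength of binding, read depth at a site and the spread between replicates could not be read, and no test was made. Counts over genes are instead set beside the same count over all protein-coding genes. H3K4me1 is a mark of enhancers and also borders active promoters. NIS served in the calling and was not analysed here on its own.

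Src family kinases are the enzymes that start signalling from receptors carrying an immunoreceptor tyrosine-based activation motif (ITAM) by phosphorylating its tyrosines. Syk and Zap70 dock on the phosphorylated ITAM through tandem SH2 domains and pass the signal to adaptors and phospholipase C gamma, and Csk holds the Src family in check by phosphorylating an inhibitory tyrosine near the C-terminus. In NKC these kinases act downstream of activating receptors that pair with DAP12, Fc receptor gamma chain or CD3 zeta. Inhibitory receptors oppose them by recruiting phosphatases.

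Start regions of Fyn, Lck, Csk and Zap70 are shown first because Runx3 peaks lay there with RUNX words in the bases shown. Each is given as the part of the Runx3 peak that is free of annotated exons, within at most 300 bases about its midpoint, read 5′ to 3′ on the strand of the gene from mm9. Capitals mark RUNX words, which are TGTGGT and TGTGGC, and also TGCGGT and TGCGGC, on either strand, so that ACCACA or ACCGCA is a word on the other strand. Fgr peaks 2 and 3, also at a start and with 1 RUNX word each in such bases, are not shown. Lck peak 5, Yes1 peak 1 and Syk peak 4 were at a start too, had 0 RUNX words in such bases and are not shown. The sequences are of Fyn peak 1 at the start cluster (chr10:39089282-39089569, + strand), Lck peak 2 at the distal start (chr4:129250886-129251049, - strand), Lck peak 4 at the proximal start (chr4:129235684-129235983, - strand), Csk peak 1 upstream of its only start (chr9:57494514-57494813, - strand) and Zap70 peak 1 at its outermost start (chr1:36818352-36818651, + strand).
Fyn peak 1: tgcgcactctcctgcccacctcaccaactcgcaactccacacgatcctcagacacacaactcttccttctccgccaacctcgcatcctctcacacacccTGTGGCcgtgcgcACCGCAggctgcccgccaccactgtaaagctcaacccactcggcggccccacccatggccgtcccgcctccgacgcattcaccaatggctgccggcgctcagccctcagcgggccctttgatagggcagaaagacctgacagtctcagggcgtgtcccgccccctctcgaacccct
Lck peak 2: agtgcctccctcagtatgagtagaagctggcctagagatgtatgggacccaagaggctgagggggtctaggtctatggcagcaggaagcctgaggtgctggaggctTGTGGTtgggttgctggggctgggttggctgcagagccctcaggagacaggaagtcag
Lck peak 4: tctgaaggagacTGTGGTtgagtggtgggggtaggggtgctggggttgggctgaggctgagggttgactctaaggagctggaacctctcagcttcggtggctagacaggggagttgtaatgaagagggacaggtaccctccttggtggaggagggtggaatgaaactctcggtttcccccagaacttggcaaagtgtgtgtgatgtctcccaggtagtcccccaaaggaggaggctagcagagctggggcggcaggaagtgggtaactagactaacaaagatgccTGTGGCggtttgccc
Csk peak 1: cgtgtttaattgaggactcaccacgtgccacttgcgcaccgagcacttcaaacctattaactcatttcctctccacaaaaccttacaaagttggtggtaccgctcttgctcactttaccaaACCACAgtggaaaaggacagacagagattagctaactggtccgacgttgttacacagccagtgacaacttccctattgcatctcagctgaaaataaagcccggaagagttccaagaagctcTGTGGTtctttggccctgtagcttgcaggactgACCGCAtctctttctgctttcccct
Zap70 peak 1: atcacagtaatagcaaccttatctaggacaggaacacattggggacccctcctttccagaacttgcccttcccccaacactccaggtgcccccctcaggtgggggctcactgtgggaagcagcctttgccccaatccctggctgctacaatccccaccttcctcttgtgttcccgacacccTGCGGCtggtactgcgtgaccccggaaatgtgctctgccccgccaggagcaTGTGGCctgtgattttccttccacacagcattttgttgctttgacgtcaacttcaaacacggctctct

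Lyn, which had no Runx3 peak at its start, is shown by contrast with the central 300 bases of its only peak, which is far upstream (chr4:3587066-3587365, + strand). Capitals mark an AP-1 word (TGACTCA or TGAGTCA), because that peak held no RUNX word.
Lyn peak 1: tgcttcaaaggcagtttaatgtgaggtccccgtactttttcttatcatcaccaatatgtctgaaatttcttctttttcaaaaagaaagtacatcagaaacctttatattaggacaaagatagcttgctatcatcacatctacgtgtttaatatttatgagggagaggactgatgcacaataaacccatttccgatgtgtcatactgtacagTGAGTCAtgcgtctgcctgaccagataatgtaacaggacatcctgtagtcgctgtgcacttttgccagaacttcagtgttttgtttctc

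All 9 windows held a Runx3 peak, against 51.0% of all protein-coding genes, and all 9 held an H3K4me1 region, against 74.0%. Fyn had 15 peaks, Syk 7, Lck 5, Csk 4, Fgr and Zap70 3 each, and Lyn, Yes1 and Src 1 each. The median was 3 peaks per gene, whereas the median over all protein-coding genes was 1 and the mean 1.10. Long genes have larger windows, and Fyn, Lyn, Yes1 and Syk are in the longest of 5 equal classes of length. Of all genes of that class 56.9% had a peak, with a mean of 1.55 peaks per gene. In the class of Lck, Fgr and Src the values were 61.2% and 1.22, and in that of Csk and Zap70 58.9% and 1.19. A count of 1 peak, as in Lyn, Yes1 and Src, was the median over all genes, with 49.0% of all genes below it and 6152 genes (27.5%) above it.

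**Figure D1:**
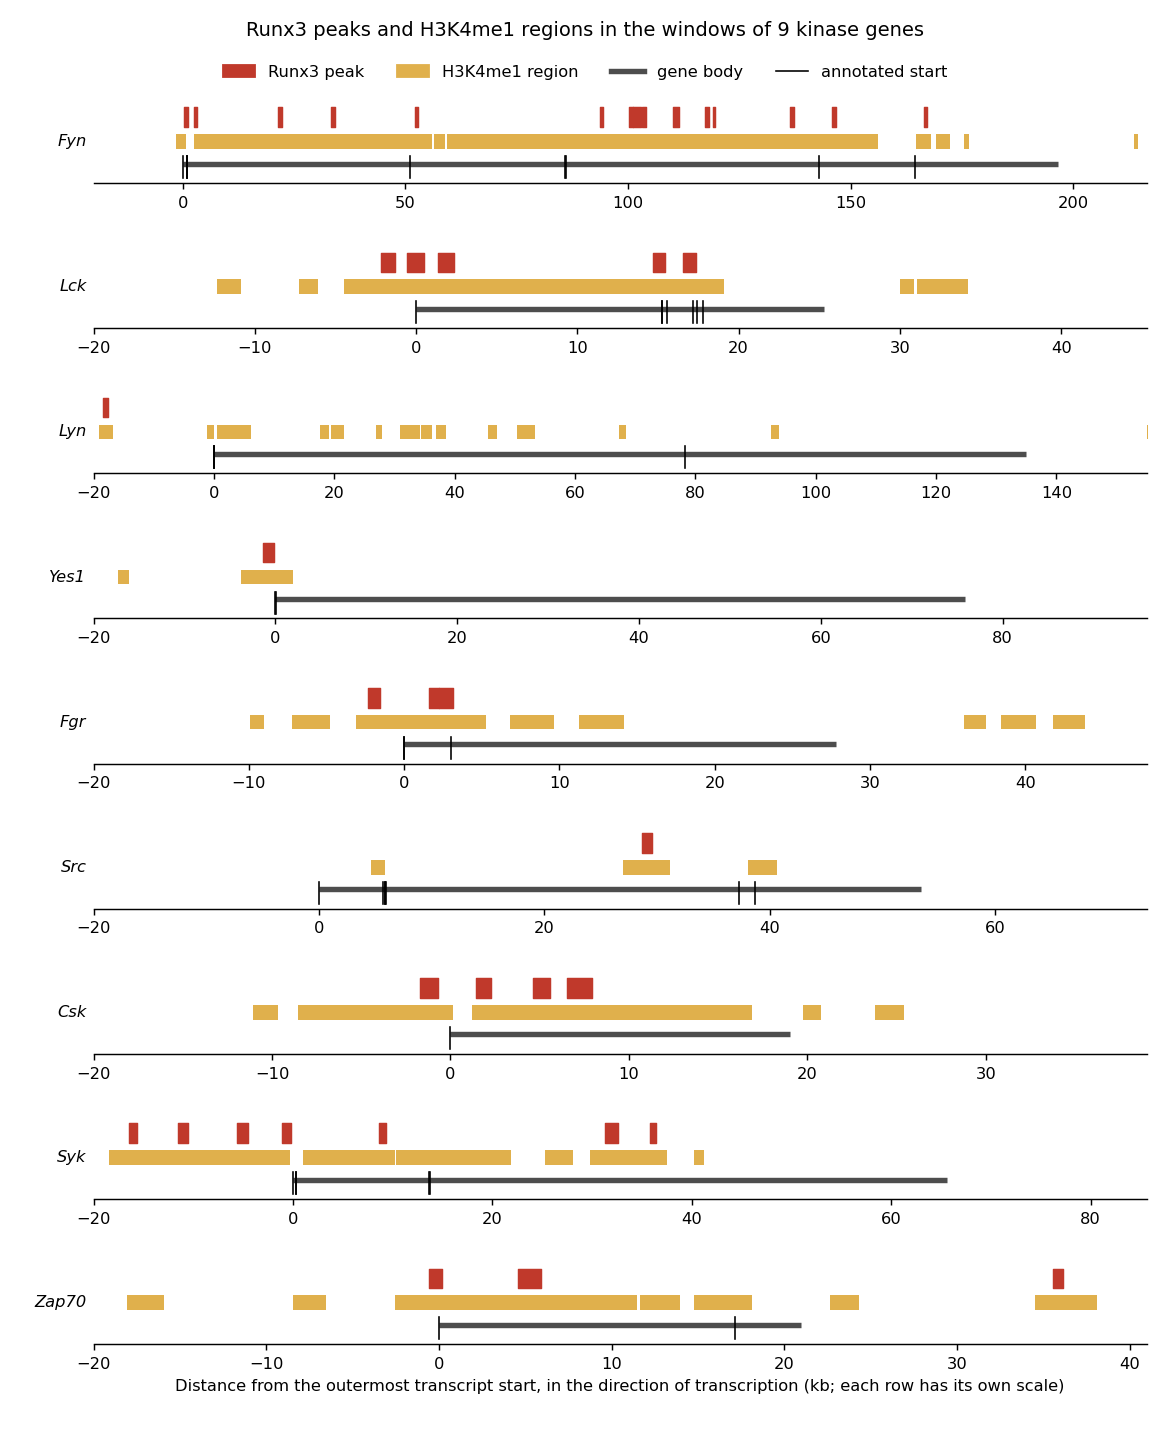
The 9 windows drawn by distance in kb from the outermost start in the direction of transcription, with Runx3 peaks in red, H3K4me1 regions in yellow, gene bodies in grey and annotated starts as ticks. The 15 peaks of Fyn lie along the gene, 4 of the 7 peaks of Syk lie before its start, and the 14 H3K4me1 regions of Lyn hold 1 peak between them.

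**Figure D2:**
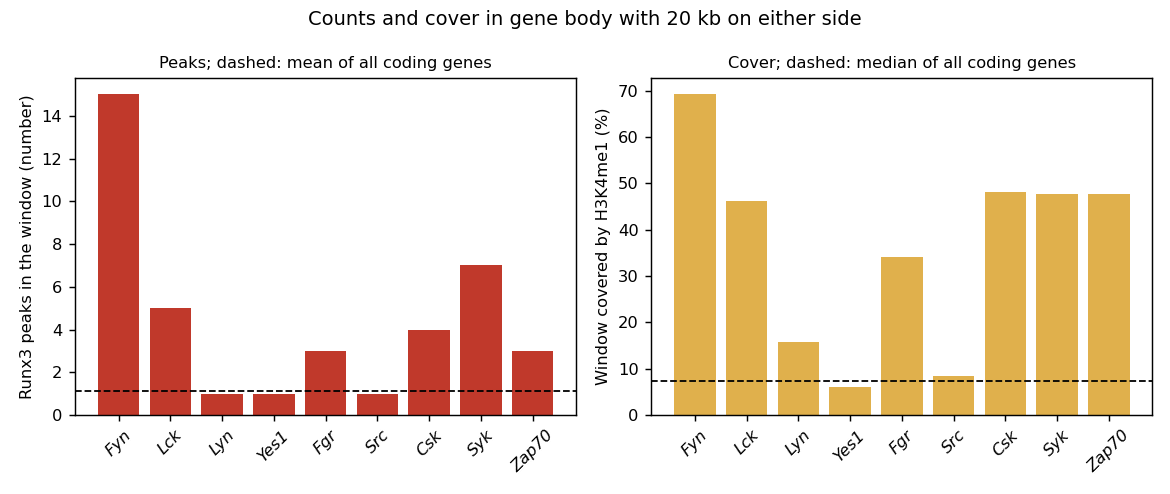
Bars give the number of Runx3 peaks (left) and the percent of the window covered by H3K4me1 (right) for each gene, and dashed lines give the mean of 1.10 peaks and the median cover of 7.38% over all protein-coding genes. Lyn, Yes1 and Src stand lowest in both panels.

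Fyn, the kinase that works with the adaptor SAP downstream of SLAM family receptors, had the most Runx3 peaks of the set (chr10:39088661-39285187, + strand). Only 4 of all protein-coding genes had more than its 15 peaks, which lay in a window of 236.5 kb. In peaks per 10 kb of window, 94.3% of genes were lower than Fyn. Peak 1 (762 bp) lay over the cluster of starts, with its midpoint 138 bp before the nearest one, and the other 14 lay in introns by their midpoints, between 2.90 and 166.8 kb from the outermost start. Introns of Fyn are numbered here on the transcript chosen as reference, and intron 3 alone held 8 peaks, at 94.1 to 136.9 kb. The widest peak of Fyn (peak 8, 1687 bp) was among them and carried 5 RUNX words. Peak 14 also overlapped a coding exon.

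H3K4me1 covered 69.2% of the Fyn window, and 99.7% of genes had less. A single region of 96856 bp, from 59.3 to 156.1 kb past the start, was the widest of all 49902 regions of the list and held 9 of the 15 Runx3 peaks. Another region of 51855 bp held 4, and 14 regions of the list, itself included, were at least that wide. At the start cluster the mark was broken, with 1673 bp between the 2 regions that flank it, and peak 1 was covered for 61.0% of its length, the lowest of all 40 peaks. Outside Fyn, the widest H3K4me1 region of the 9 genes measured 15682 bp, at Csk.

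Lck, the kinase bound to the co-receptors CD4 and CD8 in T cells, is transcribed from a distal and a proximal promoter (chr4:129225588-129250885, - strand), and Runx3 peaks lay at both. Peak 2 (1040 bp) was centred 15 bp before the distal start, with peak 1 (879 bp) 1748 bp before it and peak 3 (968 bp) 1863 bp after it. Peak 4 (745 bp) was centred 199 bp before the proximal start and overlapped a coding exon. Peak 5 (855 bp) was centred 227 bp before a start of a retained-intron transcript, in exon 6 of the reference transcript, and was not within 1 kb of a start of a protein-coding transcript. H3K4me1 covered 46.2% of the window in 6 regions, and all 5 peaks lay in the widest of these, of 15670 and 7873 bp, which were 18 bp apart. With 0.766 peaks per 10 kb of window, Lck had the highest peak density of the set.

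Lyn, known chiefly from B cells and myeloid cells, where it carries both activating and inhibitory signals, had the most H3K4me1 regions of the 9 genes but 1 Runx3 peak (chr4:3605262-3740269, + strand). Of its 14 regions, 13 held no Runx3 peak. Its single peak (735 bp) was centred 18046 bp before the start, within another annotated gene, 2210414B05Rik, while the nearest start of a protein-coding gene was that of Lyn. H3K4me1 covered 15.7% of the window, and the regions were 932 to 5601 bp wide. The outermost Lyn start was inside H3K4me1, in a region that ended 0.011 kb past it, and was 17679 bp from the nearest edge of a Runx3 peak. Of the 40 peaks that of Lyn was the only one without a RUNX word.

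Yes1 and Src, which are broadly expressed, had the lowest H3K4me1 cover, at 5.96% and 8.52%. Yes1 (chr5:32913606-32989430, + strand) had 1 peak of 1297 bp centred 750 bp before its outermost start, over the annotated gene Gm15614, and this peak reached into both of the H3K4me1 regions that met at 1 bp of gap. Src (chr2:157244180-157297598, + strand) had 1 peak of 901 bp in intron 2, 29.1 kb into the gene and 8163 bp before the nearest Src start, inside a region of 4159 bp. Neither gene had more than 3 H3K4me1 regions.

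Fgr, a kinase known from myeloid cells, had 3 Runx3 peaks centred within 3 kb of its outermost start (chr4:132530010-132557825, + strand). Peak 1 (778 bp) was centred 1912 bp before that start, and peaks 2 (601 bp) and 3 (881 bp) lay in intron 1, with peak 3 over the downstream start. All 3 were inside 1 H3K4me1 region of 8382 bp. The other 7 regions of the Fgr window had no peak, and H3K4me1 covered 34.2% of the window.

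Csk, the kinase that restrains the Src family, had 4 peaks around and after its only annotated start (chr9:57474454-57493460, - strand). Peak 1 (1006 bp) was centred 1204 bp before the start, with its near edge 701 bp from it, and peaks 2 (851 bp), 3 (965 bp) and 4 (1390 bp) lay in intron 1 at 1.83, 5.12 and 7.24 kb. The upstream peak was inside a region of 8712 bp and the others inside one of 15682 bp. H3K4me1 covered 48.1% of the window, more than in 97.8% of genes, and 912 genes had more than 4 peaks.

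Syk had 7 peaks, of which 4 lay before its outermost start and 3 in its introns (chr13:52678542-52744161, + strand). The upstream peaks were centred 16040, 11012, 5054 and 665 bp before the start, in 2 H3K4me1 regions of 5355 and 12664 bp that were 57 bp apart. Peak 4 (922 bp), the closest to the start, was covered by H3K4me1 for 85.9% of its length. Its widest peak (peak 6, 1239 bp) was in intron 3. The outermost start itself was in a gap of 1364 bp in the mark, as was the case for the neighbouring starts at 0.264 and 0.330 kb. H3K4me1 covered 47.7% of the window.

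Zap70, the relative of Syk that T cells and NKC use with CD3 zeta, had 3 peaks (chr1:36818695-36839663, + strand). Peak 1 (788 bp) was centred 193 bp before the outermost start and peak 2 (1331 bp) lay in intron 1, 5.22 kb into the gene. Both were inside 1 region of 14020 bp. Peak 3 (623 bp) lay past the end of the gene within Tmem131, 35.8 kb from the outermost Zap70 start, and still had Zap70 as the protein-coding gene with the nearest start. The 47.6% cover of the Zap70 window differed little from the 47.7% of Syk and the 48.1% of Csk, though these are single lists and no error can be set on them.

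Fyn, Lck, Fgr, Csk, Syk and Zap70 had 34.2% or more of their window covered by H3K4me1 and 3 peaks or more, whereas Lyn, Yes1 and Src had 15.7% or less and 1 peak. The median cover of the 9 genes was 46.2%, against 7.38% over all protein-coding genes with an interquartile range of 0 to 17.3%. In peaks per 10 kb of window the order was Lck at 0.766, Csk at 0.678, Syk at 0.663, Fyn at 0.634, Zap70 at 0.492 and Fgr at 0.442, followed by Src at 0.107, Yes1 at 0.0863 and Lyn at 0.0571. Fyn had the most peaks but not the highest density, because its window was 236.5 kb against 65.3 kb for Lck. How far the size of the windows accounts for the differences was not tested.

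**Figure D3:**
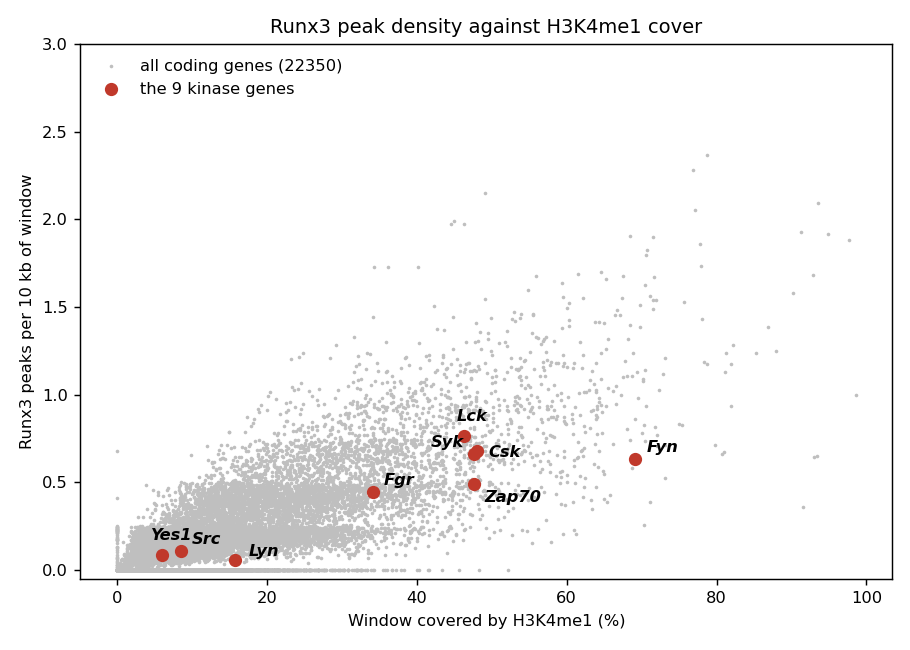
Each point is a protein-coding gene (grey, 22350 genes) or 1 of the 9 kinase genes (red), placed by the percent of its window covered by H3K4me1 and by its Runx3 peaks per 10 kb. Among the 9 genes, Lyn, Yes1 and Src are lowest on both axes, and Fyn has the highest cover at 69.2%. Of all protein-coding genes, 50.6%, 52.7% and 54.7% have a lower density than Lyn, Yes1 and Src, in that order. The cover of Lyn (15.7%) and Src (8.52%) is above the median of 7.38% over all protein-coding genes, and that of Yes1 (5.96%) is below it.

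A Runx3 peak lay within 1 kb of an annotated start in 7 of 9 genes, against 28.2% of all protein-coding genes, and Lyn and Src were the exceptions. With 500 bp in place of 1 kb the count was 6, without Csk. With 1 outermost start per gene it was also 6, without Fgr. Of the 40 annotated starts of the 9 genes, 19 had a peak within 1 kb, and these included all 7 starts of Lck. H3K4me1 was within 1 kb of a start in 9 of 9 genes, against 59.6%, and the outermost start was inside the mark in 7 of 9 genes, against 34.5%, the exceptions being Src and Syk. The starts of Fyn at 0.909 to 0.948 kb and those of Syk at 0 to 0.330 kb fell in breaks between 2 regions. The starts of Lyn at 0.012 and 0.015 kb likewise fell in a break, of 471 bp. Of the 4 annotated Lyn starts, 1 was inside the mark.

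By midpoint, 28 of the 40 peaks were in the body of the gene (15 of them in Fyn), 11 before its outermost start and 1 past its end. Midpoints in introns of the reference transcript numbered 24, most of them in Fyn, and 3 peaks touched a coding exon. These placements were not counted over all Runx3 peaks. The nearest start of a protein-coding gene, counting the starts of all its annotated transcripts, was that of the kinase gene itself for all 40. Of these peaks 8 (20%, 95% Wilson interval 10.5 to 34.8%) had their midpoint under 1 kb from such a start, Lck peak 5 at its retained-intron transcript included, against 37.2% of all Runx3 peaks, and 21 (52.5%, 37.5 to 67.1%) were over 5 kb away, against 49.0%. Fyn alone contributed 10 of these 21, and without Fyn 7 of 25 peaks (28.0%) were under 1 kb and 11 (44.0%) over 5 kb.

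All 40 peaks overlapped an H3K4me1 region (100%, 95% Wilson interval 91.2 to 100%), against 95.7% of all Runx3 peaks, and all 40 had their midpoint inside one, against 83.6%. Of the 40, 36 lay wholly inside a region, which was the case for 68.4% of all Runx3 peaks. Of the 63 H3K4me1 regions, 19 held a peak (30.2%), close to the 28.6% of all regions. The median region with a peak measured 7873 bp across, and the median region with none 1736 bp. Of the 14 regions of 5 kb or more, 12 held a peak, and of the 49 narrower ones 7 did. The same comparisons by width were not made over all H3K4me1 regions, so they do not show a trait particular to these genes. A wide region has more bases in which a peak can lie, and the part of this in the difference was not tested. The intervals, here and for the other shares of peaks, cover counting error over peaks only. They treat the 40 peaks as independent, although these come from 9 genes and 37.5% of them are of Fyn.

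RUNX words were present in 39 of the 40 peaks (97.5%, 87.1 to 99.6%), against 93.3% of all peaks, and in 25 of 33 equally wide windows 5 kb downstream of them that held no peak (75.8%). In the central 200 bp the shares were 29 of 40 peaks (72.5%, 57.2 to 83.9%) and 7 of 33 downstream windows (21.2%, 10.7 to 37.8%), against 69.2% of all peaks. The peaks held 107 RUNX words, of which TGTGGT made up 51, TGTGGC 40, TGCGGT 9 and TGCGGC 7. Within 100 bp of the midpoint lay 40 of the words (37.4%), in 21.9% of the peak bases. In 33 peaks (82.5%) there was more than 1 RUNX word, against 73.7% of all peaks, and the number reached 6 in Fyn peak 10, Csk peak 2 and Syk peak 1. Fyn had 42 words, Syk 20, Csk 14, Lck 10, Zap70 8, Fgr 6, Yes1 5 and Src 2. Per kb of peak, Yes1 had 3.86, Csk 3.32, Syk 3.14, Fyn 3.07, Zap70 2.92, Fgr 2.65, Lck 2.23 and Src 2.22. Yes1 had 5 words in its 1 peak with none in the central 200 bp, and Syk peak 4 likewise had its 2 words outside the centre.

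**Figure D4:**
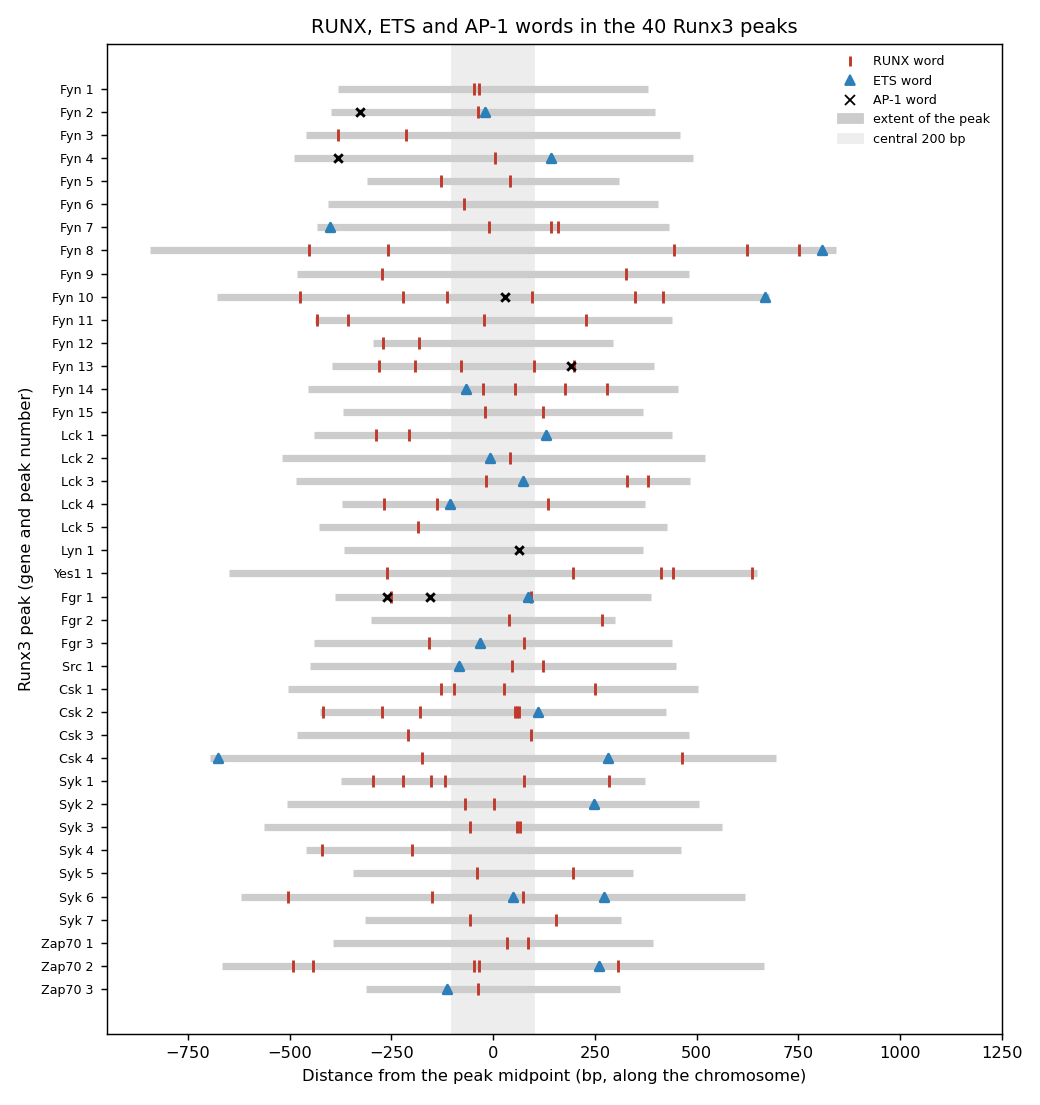
The 40 Runx3 peaks as grey bars, each named by gene and peak number, with RUNX words (red ticks), ETS words (blue triangles) and AP-1 words (black crosses) by distance in bp from the peak midpoint. In 29 peaks a RUNX word lies within the shaded central 200 bp, and Lyn peak 1 has an AP-1 word and no RUNX word.

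An ETS word (AGGAAGT or CGGAAGT, on either strand) was present in 19 of 40 peaks (47.5%, 32.9 to 62.5%), against 41.8% of all peaks, and an AP-1 word in 6 (15.0%, 7.06 to 29.1%), against 16.5%. These shares were near those of the whole list. A RUNX and an ETS word with at most 50 bp between them were present in 8 peaks (20%, 10.5 to 34.8%), against 17.3%. The 8 peaks were of Fyn (peaks 2 and 14), Lck (peaks 2 and 4), Fgr (peak 1), Csk (peak 2), Syk (peak 6) and Zap70 (peak 2), and the gap between the words ran from 1 bp in Fgr to 46 bp in Csk, where 2 overlapping RUNX words stood near 1 ETS word. In the Lck sequences shown above, the distal start peak had its RUNX and ETS words 42 bp apart and the proximal start peak 25 bp apart. Peaks at a start had a median GC content of 54.9%, against 48.6% in the other 30 peaks, and a median of 2.04 against 1.16 CpG per 100 bp.

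The pathway around these kinases was followed in 39 further genes, chosen by role with earlier results of these data known. Their counts are therefore a description and not an independent check. Of these, 37 held a Runx3 peak in their window (94.9%, set against 51.0% of all genes), with a median of 5 peaks, and 38 held an H3K4me1 region, set against 74.0%, with a median cover of 32.6% against 7.38%. A Runx3 peak was within 1 kb of a start in 25 of 39, set against 28.2% of all genes. When only peaks for which the gene had the nearest start were counted, 32 genes remained, against 34.2% of all genes. Among the genes with the most peaks were Tec with 12, Ptk2b with 11, Ubash3b with 10 and Cblb with 9. The windows of Tec and its neighbour Txk, also in the list, overlap, so a peak may count for both. Tec is the founder of a kinase family that Src family kinases activate, Ptk2b is the focal adhesion kinase relative Pyk2, Ubash3b is a phosphatase that acts on Syk and Zap70, and Cblb is a ubiquitin ligase that limits signalling. The 2 genes with 0 peaks were Btk, the Tec kinase of B cells, and Frk, an epithelial relative of the Src family.

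Of all protein-coding genes, 51.0% had a peak in the window and 28.2% had one within 1 kb of a start. Groups of 4 or 5 genes are too small to be set against these shares or against each other. Among the groups of the list, the 4 ITAM-bearing and related adaptors (Cd247, Fcer1g, Tyrobp and Hcst) had 4 to 9 peaks each with a median of 8, all with a peak within 1 kb of a start. Tyrobp and Hcst, which encode DAP12 and DAP10, are neighbours with overlapping windows, and their 9 and 8 peaks are in part the same peaks. Of the 13 brakes, which include phosphatases, ubiquitin ligases and the Csk relative Matk, all 13 held a peak, with a median of 5. Of the 13 substrates and adaptors all 13 held one, also with a median of 5, and of the 5 Tec family kinases 4 did. Of the further relatives of the Src family, Blk and Srms had 1 peak each and Frk had none, and no peak of theirs was within 1 kb of a start.

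**Figure D5:**
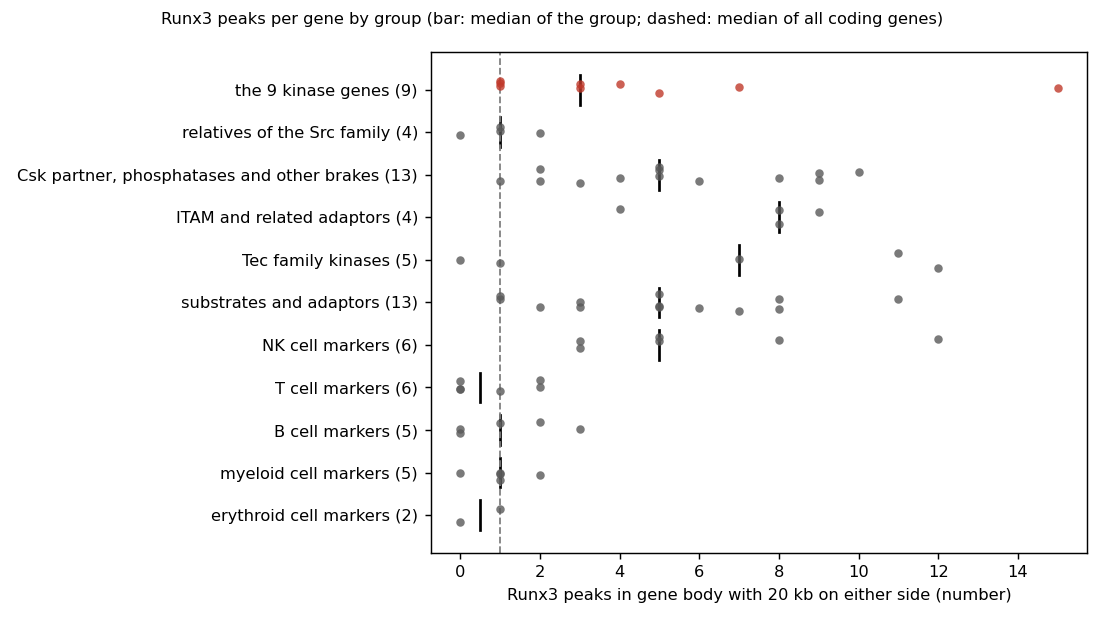
Each point is a gene, placed by the number of Runx3 peaks in its window and by group, with the median of each group as a bar and the median of all protein-coding genes (1 peak) as a dashed line. The adaptors reach a median of 8 peaks, and the marker genes of T, B, myeloid and erythroid cells stand at 0 to 3 peaks. The NK cell markers Ncr1 and Eomes and the kinase genes Fgr and Zap70 also stand at 3, and Lyn, Yes1 and Src at 1.

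The labelled cell type was checked with marker genes, which were also chosen with earlier results of these data known. All 6 NK cell markers (Ncr1, Klrb1c, Klrk1, Eomes, Tbx21 and Prf1) held a Runx3 peak, with 3 to 12 peaks each and a median cover of 69.3%, and 5 of 6 had a peak within 1 kb of a start. No T, B, myeloid or erythroid marker had a Runx3 peak within 1 kb of a start, against 28.2% of all protein-coding genes. In the window 3 of 6, 3 of 5, 4 of 5 and 1 of 2 had a peak, against 51.0% of all protein-coding genes. A peak in the window thus did not set these markers apart from genes at large. For H3K4me1 within 1 kb of a start the counts were 6 of 6 NK, 3 of 6 T, 2 of 5 B, 1 of 5 myeloid and 2 of 2 erythroid markers. The share over all protein-coding genes was 59.6%, and the groups are small. Cd4, Cd8a and Cd8b1, defining genes of T cells, were without a Runx3 peak. Cd3e and Cd3g had 2 each, but their windows overlap and these may be the same peaks. The part of other cells in the values of Lyn, Fgr or Lck was not tested.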

How the data were processed

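Chromatin of resting splenic NK cells was immunoprecipitated and sequenced with 40 bp reads after fixation in 1% formaldehyde and shearing to about 300 bp. Per the labels the cells were sorted for NKp46, and per the methods for DX5. According to the submitters' processing notes CASAVA 1.7 and genome build mm9 were used. The authors aligned the reads with ELAND, kept unique alignments, joined the reads of their biological repeats and called regions with MACS against NIS. The deposited lists hold coordinates only, with no score, count or p-value, so the depth behind each region is unknown.

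Coordinates are 1-based on mm9. Genes, starts and exons were taken from GENCODE of the same build, and the reference transcript of a gene is the one used to number exons and introns. A peak or region was assigned to a gene with an overlap of at least 1 bp, and to more than 1 gene where windows overlapped. RUNX, ETS and AP-1 words were searched on both strands. Scripts were tested on simulated lists with known answers (Python 3.11.15, pandas 2.3.3, numpy 2.4.6, scipy 1.17.1, matplotlib 3.10.9). No test between groups was possible with 1 list per antibody. The members, the pathway list and the markers were chosen with earlier results of these data known. All members were named, with every peak of genes with 5 or fewer. For the other members the peak nearest a start, the widest peak and the widest H3K4me1 region were named, and other peaks where a count turned on them. Pathway genes were named by most peaks (the 5 highest, ties by symbol) or by 0 peaks, some items that the rules name are not reported here, and others were named as examples of their group after their values were seen.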

Additional observations from a re-analysis of the deposited data

How the results depend on the processing

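In all, 8 results were recomputed under 38 alternatives, of which 1, the merging of peaks at most 1 kb apart, was chosen after seeing the data. Within 1.5 times the main count, or within its 95% interval for a share of peaks, lay 30 of the 38 values. Of the other 8, 4 are median covers, for which no bound was set, and all 8 are given here. The median H3K4me1 cover of the 9 windows was 49.25% with no flank, 48.91% with 5 kb, 31.18% with 50 kb and 40.85% with only regions wider than the median, whereas the median over all genes ran from 4.24 to 8.01%. Counting only peaks wider than the median left 24 of 40 peaks and 8 of 9 genes, without Lyn, against 35.1% of all genes. RUNX words were in 72.5% of peaks when only the central 200 bp were read, in 75.76% of the windows 5 kb downstream and in 100% of the peaks of the windows with no flank. The number of genes with a peak was 7 with no flank, without Lyn and Yes1, against 33.6% of all genes, and 8 with a flank of 5 kb, without Lyn, against 39.8%. Merging peaks at most 1 kb apart left 33 peaks, with Fyn at 12 and Lck at 3. Joining H3K4me1 regions at most 500 bp apart would leave 50 of 63. No paired analysis was possible because each antibody has 1 sample and no test was made. Coordinates carry no depth, so a gene without a peak cannot be told from one with too few reads.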
